A study of Mus musculus with 6 samples.

Results

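The 10 genes described here encode the calcineurin-NFAT pathway and Ca2+/calmodulin-dependent protein kinase II (CaMKII): the kinase genes Camk2b, Camk2d and Camk2g, the phosphatase genes Ppp3ca and Ppp3cb, the calcineurin regulator Rcan1, and the transcription factor genes Nfatc1, Nfatc2, Nfatc3 and Nfatc4. They were chosen by name from the 49315 genes of the count table, and all 10 were found and passed the filter on low counts. The mRNA came from the mid-ventricular part of hearts of adult mice, labelled as cardiac muscle tissue. The WT group has wild-type mice and the TET2KO group mice with an endothelial-specific knockout of Tet2, a dioxygenase that oxidises 5-methylcytosine, with 3 libraries per group called biological replicates. Every mouse of both groups received Angiotensin II at 1 mg/kg/day for 28 days from an osmotic minipump under the skin, and no group without Angiotensin II was analysed here. The sources used here do not give the promoter driving the deletion, the exons removed, the sex or the exact age. All 6 libraries carry the same batch label.

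Calcineurin is a phosphatase of a catalytic A subunit (Ppp3ca, Ppp3cb or Ppp3cc) and a regulatory B subunit that is switched on by Ca2+ and calmodulin. It removes phosphates from the NFATc proteins, which then enter the nucleus, and in heart muscle this route is known for driving hypertrophic growth. CaMKII is a kinase that answers to the same Ca2+ and calmodulin signal. In cardiomyocytes it acts on Ca2+-handling proteins and on histone deacetylases, and the product of Camk2d is its main cardiac form. Rcan1 binds and restrains calcineurin and is itself a target of NFAT, from an internal promoter.

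RefSeq lists 10 start-site windows, each of the 250 bases upstream of a start, for 7 of the genes in its GRCm38.p6 table. The Rcan1 windows are printed because Rcan1 is the standard transcript readout of NFAT activity. A window of Nfatc2 is printed because that gene had the highest fold change of the 10. All are on the minus strand and given 5′ to 3′, ending 1 base before the start. Capitals mark the NFAT core GGAAA or its reverse complement TTTCC, and the AP-1 motif TGACTCA or TGAGTCA, with no overlap between the motifs.
Rcan1, upstream start (chr16:92466170-92466419): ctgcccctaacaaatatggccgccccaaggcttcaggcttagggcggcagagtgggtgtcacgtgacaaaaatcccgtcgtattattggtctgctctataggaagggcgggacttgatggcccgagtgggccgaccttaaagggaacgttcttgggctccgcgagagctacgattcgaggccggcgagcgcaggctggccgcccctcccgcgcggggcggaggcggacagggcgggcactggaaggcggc
Rcan1, internal start (chr16:92400079-92400328): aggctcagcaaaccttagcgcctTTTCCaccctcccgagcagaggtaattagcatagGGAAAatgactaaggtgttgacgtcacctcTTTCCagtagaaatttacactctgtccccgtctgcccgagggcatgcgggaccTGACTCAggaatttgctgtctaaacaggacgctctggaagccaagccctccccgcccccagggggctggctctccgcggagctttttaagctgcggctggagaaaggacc
Nfatc2, first start (chr2:168601658-168601907): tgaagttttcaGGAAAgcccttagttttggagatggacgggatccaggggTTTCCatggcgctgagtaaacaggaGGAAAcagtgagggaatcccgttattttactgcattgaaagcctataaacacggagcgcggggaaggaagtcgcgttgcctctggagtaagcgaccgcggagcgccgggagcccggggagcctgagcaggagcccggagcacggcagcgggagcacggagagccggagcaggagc
The window of the internal Rcan1 start holds 3 NFAT cores, at 227, 193 and 163 bases before the start, and 1 AP-1 motif at 110 bases. The window of the upstream Rcan1 start holds neither motif. The Nfatc2 window holds 3 cores, at 239, 200 and 175 bases before the start. Of the 10 windows, 7 hold at least 1 core and 4 hold 3 or more (Ppp3cb, internal Rcan1, first Nfatc2 and Nfatc4). Across all 32851 windows in the RefSeq table, 55.6% hold at least 1 core, 6.39% hold 3 or more, and 4.46% hold the AP-1 motif. Windows with 3 or more cores together with AP-1 numbered 105 (0.320%), and the internal Rcan1 window is one of them. These are matches of letters and not binding sites. Counts per gene do not separate transcripts from the 2 Rcan1 starts.

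Levels are CPM, the reads of a gene per unit of library size scaled with TMM factors, as mean ± SD with n = 3 per group. A log2 fold change is TET2KO over WT ± SE. Adjusted p-values are from edgeR's quasi-likelihood test with Benjamini-Hochberg adjustment over the 14370 genes tested, with a threshold of 0.05. Library totals ran from 22124844 to 30418909 reads. Tet2 was not lower in the libraries labelled TET2KO. It stood at 4.27, 4.33 and 3.08 CPM in the libraries labelled WT and at 14.6, 8.01 and 10.4 CPM in those labelled TET2KO. Its log2 fold change was 1.49 ± 0.29 (adjusted p = 0.0065). Its trend-removed value, as defined below for all genes, was 0.27 ± 0.17 and did not pass (adjusted p = 0.21), and the median of genes of like length was 1.38. These counts per gene come from bulk tissue, and the knockout is endothelial-specific with its exons not given. They therefore cannot show whether the deletion took place, and the labels were not tested. Groups are named as labelled, and each direction is that of the labels. Fold changes over all genes followed transcript length (Spearman rho 0.612 across genes, which are not independent replicates). A second fold change, is therefore given as the trend-removed value: it comes from a fit in which a smooth dependence on length and GC content was taken out of each library. The TET2KO libraries differed more among themselves than the WT libraries did: the chi-square per degree of freedom was 286 for TET2KO replicates 1 and 2, 132 for 2 and 3 and 45.3 for 1 and 3, against 13.0 to 16.6 for pairs of WT replicates.

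Of the 10 genes, 7 were higher in the libraries labelled TET2KO, 0 were lower and 3 did not pass the test. Over all genes tested, 62.9% passed, 33.4% higher and 29.4% lower. At an unadjusted p under 0.05 the count of lower genes among the 10 was also 0, as it was with DESeq2 and limma-voom. The median log2 fold change of the 10 was 0.80, and over all genes it was 0.046. The 2 groups did not overlap for 7 of the 10 genes, against 73.5% of all genes tested, and in 6 of these 10 the TET2KO libraries were the higher ones, against 38% of all genes. All 4 NFATc genes were higher, by the largest folds among the 10. Camk2d, Camk2b and Ppp3ca were also higher, by smaller folds, while Camk2g, Ppp3cb and Rcan1 did not pass. Without TET2KO replicate 3, WT replicate 1 or WT replicate 3, the count of higher genes was 4, where 3654, 3477 and 3370 of all genes were higher. With the trend removed, 1 of the 10 remained higher (Nfatc3) and 0 were lower, where 46.2% of all genes passed. The plot of CPM by library shows every value.

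**Figure D1:**
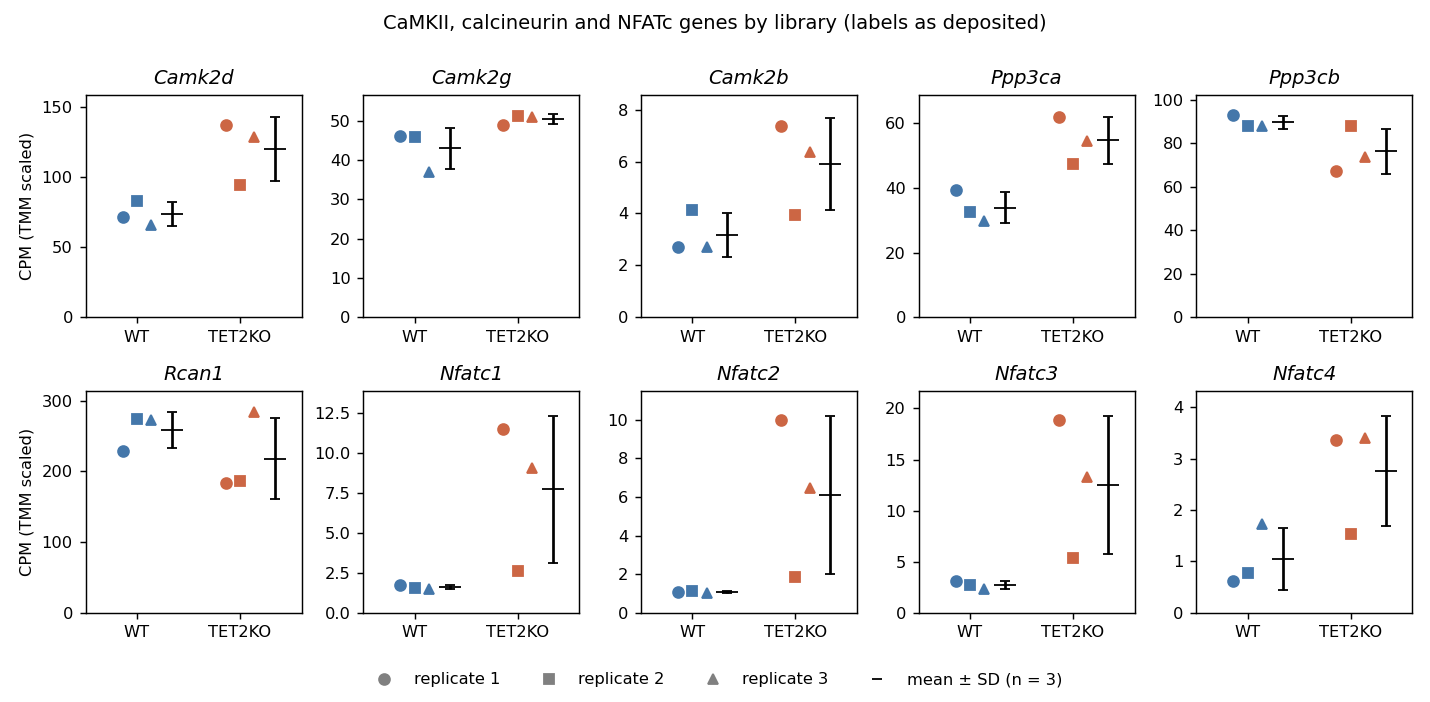
CPM of each of the 10 genes in each library, with the y axis starting at 0 and its own scale for each gene. Symbols are the replicates and bars are the mean ± SD (n = 3). The 4 NFATc genes sit low and close together in WT except for Nfatc4, and spread widely in TET2KO, where replicate 2 is the lowest.

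The first role is that of the kinase. Camk2d, Camk2b and Camk2g encode the delta, beta and gamma subunits of CaMKII. Camk2d and Camk2b were higher in the libraries labelled TET2KO, and Camk2g did not pass the test.

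Camk2d (ENSMUSG00000053819, protein coding, GRCm38 chromosome 3, 126596302 to 126846326, plus strand) stood at 71.6, 82.7 and 66.1 CPM in WT and at 137, 94.2 and 129 CPM in TET2KO. All TET2KO libraries were above all WT libraries, with replicate 2 the closest to them. The means were 73.5 ± 8.44 and 120.0 ± 22.8 CPM, and the log2 fold change was 0.71 ± 0.20 (adjusted p = 0.016). Without TET2KO replicate 3, WT replicate 1 or WT replicate 3, Camk2d did not pass (adjusted p = 0.057, 0.070 and 0.077). Its trend-removed value was 0.24 ± 0.12 (adjusted p = 0.13). The adjusted p ranged from 2.9e-05 to 0.23 over 18 alternatives.

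Camk2b (ENSMUSG00000057897, protein coding, chromosome 11, 5969644 to 6066362, minus strand) had the fewest reads of these kinase genes. It stood at 2.69, 4.13 and 2.69 CPM in WT and at 7.37, 3.94 and 6.38 CPM in TET2KO. The groups overlapped, since TET2KO replicate 2 lay below WT replicate 2. The log2 fold change was 0.89 ± 0.32 (adjusted p = 0.039). Leaving out TET2KO replicate 1 or 3, or WT replicate 1 or 3, ended the call (adjusted p = 0.10, 0.11, 0.13 and 0.13), as did limma-voom (0.052). The trend-removed value had the opposite sign, -0.56 ± 0.21 (adjusted p = 0.053). Over 18 alternatives the adjusted p ran from 0.00049 to 0.13.

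Camk2g (ENSMUSG00000021820, protein coding, chromosome 14, 20734875 to 20794088, minus strand) stood at 46.1, 45.9 and 37.0 CPM in WT and at 48.8, 51.2 and 50.9 CPM in TET2KO. The groups did not overlap, but the gap between the nearest libraries was small beside the spread within WT. The log2 fold change of 0.23 ± 0.15 did not pass (adjusted p = 0.22). Scaling set its call: with total library size as the scale it was 0.65 (adjusted p = 0.013), and with the trend removed it was -0.39 ± 0.16 (adjusted p = 0.065). Its adjusted p ran from 0.00060 to 0.59 over 18 alternatives.

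The second role is that of the phosphatase. Ppp3ca and Ppp3cb encode the alpha and beta forms of the catalytic A subunit of calcineurin. Ppp3ca was higher in the libraries labelled TET2KO, and Ppp3cb did not pass.

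Ppp3ca (ENSMUSG00000028161, protein coding, chromosome 3, 136670124 to 136937727, plus strand) stood at 39.2, 32.6 and 29.8 CPM in WT and at 62.0, 47.4 and 54.7 CPM in TET2KO. The groups were apart, and TET2KO replicate 2 was again the lowest of its group. The means were 33.9 ± 4.82 and 54.7 ± 7.30 CPM, with a log2 fold change of 0.69 ± 0.18 (adjusted p = 0.012). Without WT replicate 2 or WT replicate 3 the gene did not pass (adjusted p = 0.056 and 0.062). The trend-removed value was 0.29 ± 0.12 (adjusted p = 0.079, with a range of 7.9e-05 to 0.88 over 18 alternatives).

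Ppp3cb (ENSMUSG00000021816, protein coding, chromosome 14, 20499364 to 20546573, minus strand) stood at 93.1, 88.0 and 87.7 CPM in WT and at 67.2, 87.6 and 73.6 CPM in TET2KO. TET2KO replicate 2 lay at the level of the WT libraries, and the other two lay below. The log2 fold change of -0.24 ± 0.16 did not pass (adjusted p = 0.23). Without TET2KO replicate 2 it was -0.33 and passed (adjusted p = 0.029). The sign was positive with the trend removed (0.25 ± 0.10, adjusted p = 0.066), with total library size (0.19) and on the log2(TPM + 1) scale (0.38, adjusted p = 0.032). Over 18 alternatives the adjusted p ran from 0.027 to 0.59.

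Rcan1 (ENSMUSG00000022951, protein coding, chromosome 16, 92391953 to 92470867, minus strand), the calcineurin regulator whose start-site windows are printed above, stood at 229, 274 and 273 CPM in WT and at 183, 187 and 284 CPM in TET2KO. TET2KO replicate 3 was the highest library of all and the other two of that group were the lowest, so the groups overlapped. The means were 259 ± 25.9 and 218 ± 57.1 CPM, and the log2 fold change of -0.25 ± 0.22 did not pass (adjusted p = 0.36). Rcan1 passed in 0 of 18 alternatives (adjusted p 0.052 to 0.72). Its trend-removed value was -0.43 ± 0.17 (adjusted p = 0.068), and with merged exon length -0.42 ± 0.19 (adjusted p = 0.094). Its sign was positive with total library size (0.18) and on the log2(TPM + 1) scale (0.36).

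The NFATc genes encode the transcription factors that calcineurin activates. All 4 were higher in the libraries labelled TET2KO, from 2.65-fold for Nfatc4 to 5.70-fold for Nfatc2. Each was low in WT, with 13 to 66 reads per library, so their values there rest on few reads. In bulk tissue, more cells of a type and more RNA per cell cannot be told apart.

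Nfatc1 (ENSMUSG00000033016, protein coding, chromosome 18, 80606205 to 80713071, minus strand) stood at 1.73, 1.55 and 1.51 CPM in WT and at 11.5, 2.60 and 9.05 CPM in TET2KO. The 3 WT libraries were close together, and every TET2KO library was above them, replicate 2 by the least. The log2 fold change was 2.27 ± 0.52 (adjusted p = 0.0083), and the trend-removed value 0.79 ± 0.30 did not pass (adjusted p = 0.055). With merged exon length in place of the longest transcript, the trend-removed value was 0.86 ± 0.30 and passed (adjusted p = 0.045, with a range of 6.3e-11 to 0.061 over 18 alternatives).

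Nfatc2 (ENSMUSG00000027544, protein coding, chromosome 2, 168476410 to 168601657, minus strand) stood at 1.06, 1.14 and 1.01 CPM in WT and at 10.01, 1.83 and 6.45 CPM in TET2KO. Here too the groups did not overlap, and TET2KO replicate 1 was more than 5-fold above TET2KO replicate 2. The means of 1.07 ± 0.0693 and 6.10 ± 4.10 CPM gave a log2 fold change of 2.51 ± 0.58 (adjusted p = 0.0087). The trend-removed value was 0.36 ± 0.24 (adjusted p = 0.24, with a range of 1.1e-11 to 0.35 over 18 alternatives).

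Nfatc3 (ENSMUSG00000031902, protein coding, chromosome 8, 106058840 to 106130537, plus strand) stood at 3.12, 2.70 and 2.35 CPM in WT and at 18.8, 5.37 and 13.3 CPM in TET2KO. All TET2KO libraries were above the WT libraries, and replicate 2 was well below the other two. The means were 2.72 ± 0.385 and 12.5 ± 6.77 CPM, with a log2 fold change of 2.20 ± 0.44 (adjusted p = 0.0066). With the trend removed, Nfatc3 still passed at 1.33 ± 0.30 (adjusted p = 0.0079). It was higher and passed in all 18 alternatives, the only gene of the 10 to do so (adjusted p 5.1e-12 to 0.035). It shares 219 nt of exon with Esrp2 on the other strand, which had 79 reads over all 6 libraries. Without a stated strand setting, how reads of that shared stretch were counted is not known.

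Nfatc4 (ENSMUSG00000023411, protein coding, chromosome 14, 55823144 to 55833943, plus strand) stood at 0.624, 0.777 and 1.74 CPM in WT and at 3.37, 1.53 and 3.40 CPM in TET2KO. The groups overlapped, since WT replicate 3 lay above TET2KO replicate 2. The log2 fold change was 1.43 ± 0.48 (adjusted p = 0.033). Without TET2KO replicate 1 or 3, or WT replicate 1 or 2, it did not pass (adjusted p = 0.065, 0.093, 0.11 and 0.11). The trend-removed value was negative, -0.25 ± 0.38 (adjusted p = 0.61, with a range of 0.00029 to 0.78 over 18 alternatives).

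The 7 higher genes shared their lowest TET2KO library, and Tet2 and Camk2a outside the 10 had the same one. The share of all genes with this library lowest was not counted. Replicate 2 was the lowest of its group for Camk2b, Camk2d, Ppp3ca and all 4 NFATc genes, and the highest for Camk2g and Ppp3cb. Without it the 7 genes remained higher and Ppp3cb was lower, so 8 of the 10 passed, where 75.1% of all genes did. Scaling also touches these counts: over all genes, the median log2 fold change was 0.47 with total library size, 0.0063 with DESeq2's size factors and 0.41 on the log2(TPM + 1) scale. Calls that were higher made up 53.2% with TMM, 74.2% with total library size, 51.7% with DESeq2's size factors and 79.6% on the log2(TPM + 1) scale. The 7 genes were higher under each of these scalings, Camk2g joined them with total library size, and Camk2g and Ppp3cb on the log2(TPM + 1) scale.

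Transcript length moved with these fold changes. The longest transcripts ran from 2324 nt (Rcan1) to 6828 nt (Nfatc2). All tested genes were put into 10 groups of equal size by length. In the length group that holds Rcan1, the median log2 fold change was -0.17 and 20.3% of genes were higher. The group with Camk2b, Camk2g, Ppp3cb and Nfatc4 had a median of 0.42. That with Ppp3ca and Nfatc1 had 0.66, that with Camk2d and Nfatc3 had 1.02, and that with Nfatc2 had 1.38, with 72.5% of its genes higher. Set against these medians, Camk2d lay below its length group, Camk2g and Ppp3cb did too, Ppp3ca and Rcan1 lay within 0.1 of their medians, Camk2b lay above, and the 4 NFATc genes lay above by 1 or more. The plot of fold change against transcript length shows this. These medians leave out GC content, which the trend-removed value takes in. In the group with Camk2b, Camk2g, Ppp3cb and Nfatc4, GC content of the longest transcript ran from 39.8% (Ppp3cb) to 58.8% (Nfatc4). Of the genes above their medians, Nfatc4 and Camk2b had negative trend-removed values (-0.25 and -0.56). Those of Nfatc1, Nfatc2 and Nfatc3 were 0.79, 0.36 and 1.33. Whether length or GC content set any of these differences was not tested.

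**Figure D2:**
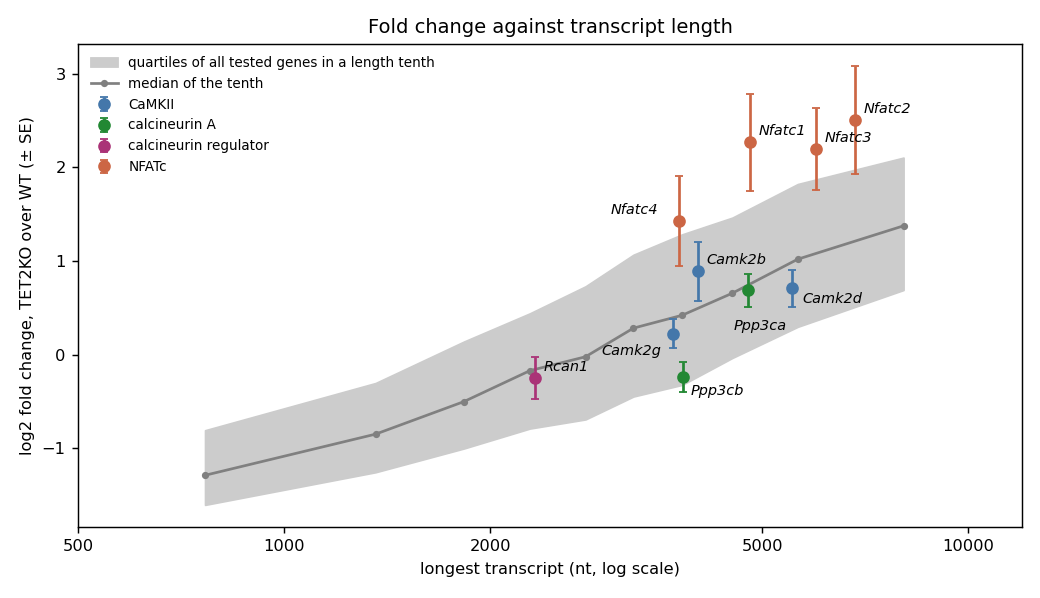
Log2 fold change ± SE of the 10 genes against the length of the longest transcript (log axis). The grey line and band are the median and quartiles of all tested genes in 10 groups of equal size by length. The NFATc genes lie above the band, and Ppp3ca and Rcan1 lie on the line. GC content is not taken into account in this plot.

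The fitted trend, as the difference of TET2KO from WT in log2 units, was 1.89 at Nfatc2, 1.60 at Nfatc4, 1.40 at Camk2b and 1.32 at Nfatc1. For Nfatc3 it was 0.79, for Camk2g 0.63, for Camk2d 0.46, for Ppp3ca 0.40 and for Rcan1 0.18, and for Ppp3cb it was -0.50. With the trend on merged exon length, 2 of the 10 were higher (Nfatc1 and Nfatc3) and 2 were lower, where 50.4% of all genes passed, 24% higher and 26.4% lower. The lower ones were Camk2b (-0.81 ± 0.25, adjusted p = 0.027) and Camk2g (-0.61 ± 0.20, adjusted p = 0.035). Camk2d turned to -0.31 ± 0.14 (adjusted p = 0.098) in that fit, having 22493 nt of merged exons against 5524 nt in its longest transcript. The trend-removed fit without TET2KO replicate 2 called 6 of the 10 higher (Camk2d, Ppp3ca, Ppp3cb, Nfatc1, Nfatc2 and Nfatc3) and 2 lower (Camk2b and Camk2g), where 27.8% of all genes were higher and 30.5% lower. The plot of fold changes under 3 fits shows the values with all 6 libraries.

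**Figure D3:**
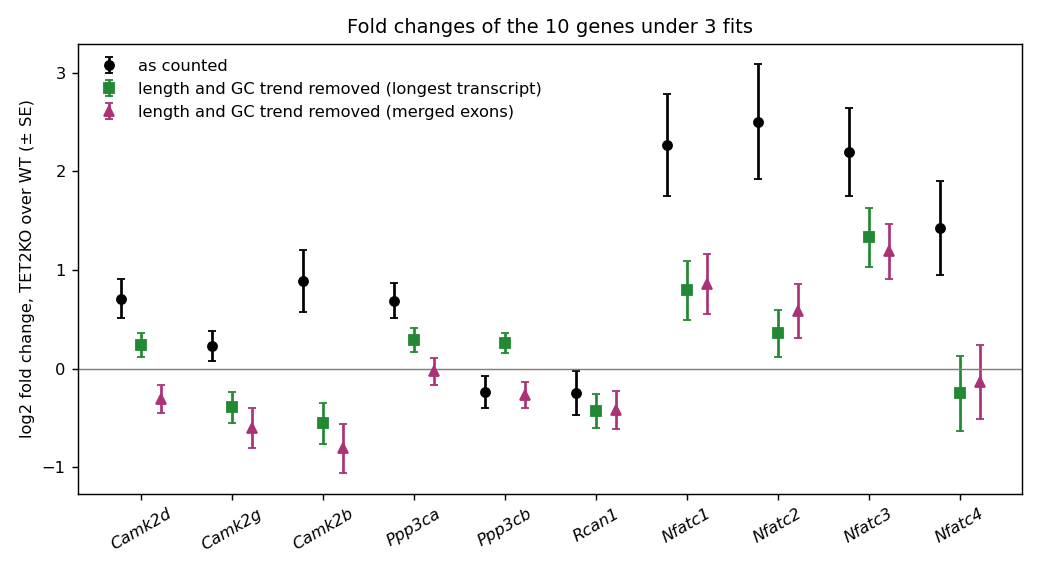
Log2 fold change (TET2KO over WT, ± SE) of each gene as counted and with the length and GC trend removed, using the longest transcript or the merged exons. Nfatc1, Nfatc2 and Nfatc3 stay above 0 in all 3 fits, Rcan1 stays below 0, and the sign of the other 6 depends on the fit.

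The authors' deposited table gave the same 7 genes an adjusted p under 0.05, among 65% of its genes. In the authors' deposited table the log2 fold changes of Nfatc1, Nfatc2, Nfatc3 and Nfatc4 were 2.21, 2.45, 2.14 and 1.36. These 4 were the ones of the 10 in the authors' deposited table of significant genes, which holds 43.5% of the tested genes and none with an absolute log2 fold change below 1.

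Levels between genes were compared per length, in the deposited TPM values (transcripts scaled to a common total in each library). In WT, Rcan1 stood highest at 163 ± 23.5 TPM, followed by Ppp3cb (23.5 ± 2.01) and Camk2g (18.4 ± 3.48), which overlapped each other. Ppp3ca (5.36 ± 0.901) and Camk2d (5.18 ± 1.04) came next and overlapped. Camk2b, Nfatc4, Nfatc3 and Nfatc1 overlapped in a chain from 0.555 ± 0.193 to 0.339 ± 0.0368 TPM, and Nfatc2 was the lowest at 0.160 ± 0.0239. In TET2KO, Rcan1 was again highest (213 ± 55.3 TPM), then Camk2g (33.3 ± 2.40) and Ppp3cb (30.8 ± 1.55), then Ppp3ca (13.5 ± 3.11) and Camk2d (13.2 ± 3.61), with overlap inside each pair. Nfatc3, Nfatc1, Nfatc4, Camk2b and Nfatc2 then overlapped in a chain from 2.71 ± 1.66 to 1.47 ± 1.09 TPM. The gap between Rcan1 and every other gene of the 10 was thus wide in both groups.

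These TPM levels depend on the gene length behind them. Among 5952 genes with at least 200 reads in every library, 81.25% had a TPM length within 2% of the merged exons of GENCODE M21. For Camk2d that length is 22493 nt, 4.07 times its longest transcript, and for Camk2g it is 3703 nt. By TPM, Camk2g held 73.4 ± 2.08% of the summed CaMKII level in WT, Camk2a included, and Camk2d held 20.7 ± 1.13%. By reads per kilobase of the longest transcript, Camk2d held 50.0 ± 1.504% and Camk2g 43.7 ± 2.37%. The order of the 2 kinase genes is therefore set by the length used.

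The share of each family held by each gene was then compared between the groups, with an exact 2-sided permutation test over libraries for 11 shares. The smallest p that this exact test allows with 3 against 3 libraries is 0.1. Camk2g held 75.8, 72.0 and 72.4% of the CaMKII TPM in WT and 52.6, 68.9 and 57.7% in TET2KO, a difference of -13.7 points. Camk2a, the alpha subunit best known from brain, held 3.05, 4.01 and 4.19% in WT and 19.9, 8.05 and 15.4% in TET2KO, a difference of 10.7 points. Neither share overlapped between the groups (exact permutation p = 0.1, adjusted 0.28 for each). Camk2d, by contrast, differed by 2.40 points (exact p = 0.3, adjusted 0.47) and Camk2b by 0.58 points (exact p = 0.2, adjusted 0.44).

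Within calcineurin A, Ppp3ca held 9.09, 7.91 and 6.66% in WT and 19.7, 12.8 and 15.5% in TET2KO, a difference of 8.11 points. Ppp3cc, the third A subunit, held 57.6 ± 2.97% in WT and 47.6 ± 2.41% in TET2KO, a difference of -9.98 points (exact permutation p = 0.1, adjusted 0.28 for both). The Ppp3cb share differed by 1.86 points (exact p = 0.6, adjusted 0.66), and by -0.93 points per kilobase of the longest transcript. Within the NFATc family no share differed beyond its spread: Nfatc1 by 2.68 points (exact p = 0.5), Nfatc2 by 3.26 (exact p = 0.3), Nfatc3 by 2.69 (exact p = 0.8) and Nfatc4 by -8.63 points (exact p = 0.5), all with adjusted p from 0.47 to 0.80. WT replicate 3 was apart there, with 46.4% for Nfatc4 against 20.6 and 26.1% in the other WT libraries. The family sums were 25.1 ± 4.76 and 56.7 ± 11.5 TPM for CaMKII, 67.8 ± 2.88 and 84.5 ± 1.29 TPM for calcineurin A, and 1.27 ± 0.0933 and 8.54 ± 5.19 TPM for NFATc, in WT and TET2KO. These sums depend on the TPM scale, as the median log2 fold change of all genes was 0.41 on log2(TPM + 1). In CPM, the WT and TET2KO means were 33.9 and 54.7 for Ppp3ca, 89.6 and 76.1 for Ppp3cb, and 48.4 and 32.2 for Ppp3cc. The sums were not tested for a difference between the groups.

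**Figure D4:**
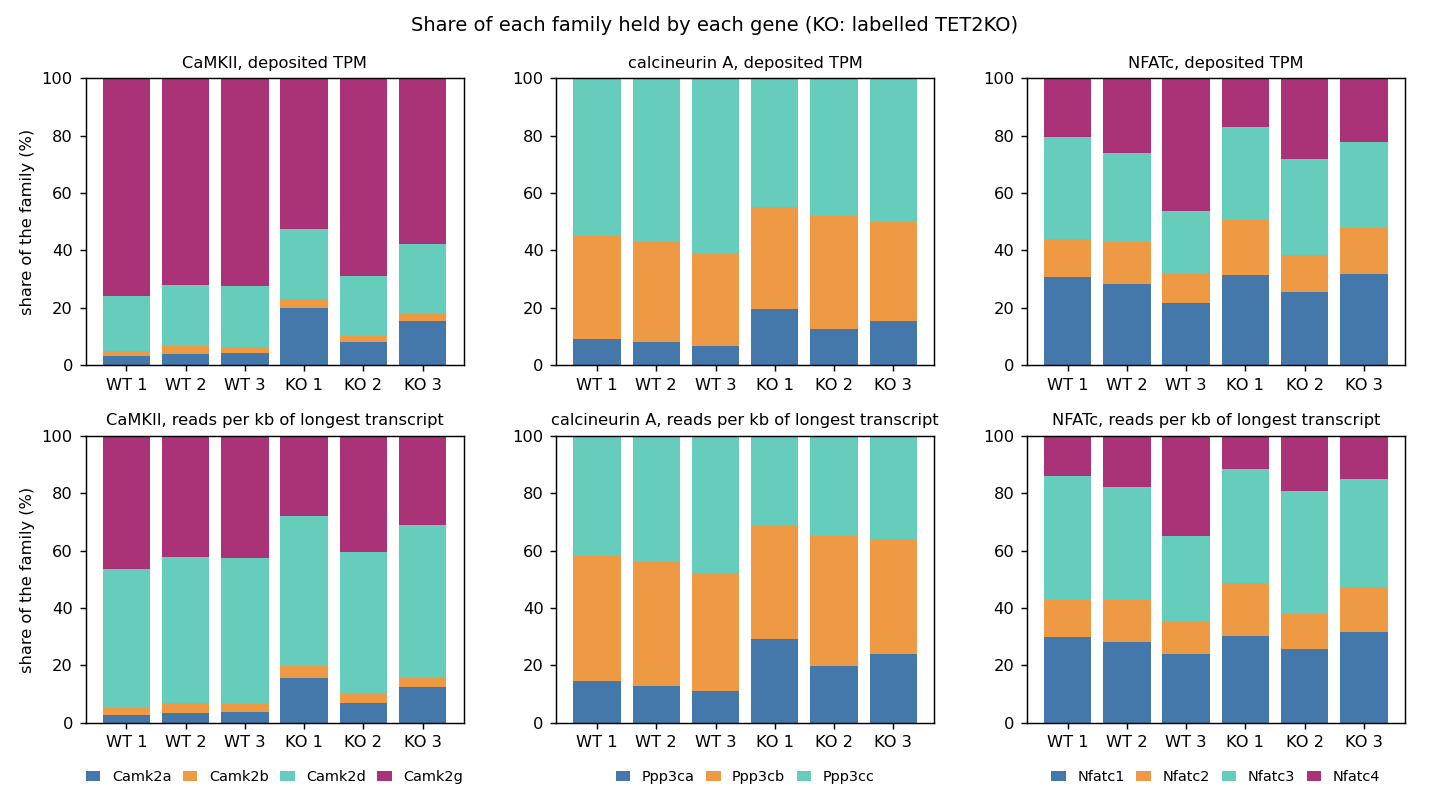
Share in percent of each family's summed level held by each gene in each library, by deposited TPM (top) and by reads per kilobase of the longest transcript (bottom). Bars are single libraries and each adds to 100. The Camk2a and Ppp3ca shares are larger in every TET2KO library than in any WT library on both scales, and the Camk2d share depends on the scale.

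Genes whose pattern over the 6 libraries was most like that of a member were found by Pearson r of log2 CPM, for 1 member of each role. They were Ucp2, Ppm1f and Fam189a2 for Camk2d, and Tbck, Rhobtb2 and Wdr91 for Ppp3ca. Such likeness was common: 2749 of 10690 genes had an r above 0.95 with Camk2d and 1173 with Ppp3ca. For Nfatc4 they were Aldh16a1, Fstl3 and Rundc1, among 139 genes above 0.95. For Rcan1 they were Plp2 (r = 0.995), Dtna (0.988) and Hmces (0.974), and only 5 genes were above 0.95. These are descriptions over 6 libraries that share the 2 groups.

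The other genes of the pathway were taken from 9 lists, which hold 93 tested genes outside the 10. Of these, 53 were higher and 19 lower, while 21 did not pass, with a median log2 fold change of 1.03. Among all genes tested, 33.4% were higher and 29.4% lower, with a median of 0.046. After trend removal, 33 were higher and 20 lower, with a median of 0.14 against -0.031 for all genes. In that fit 21.9% of all genes were higher and 24.3% lower. The counts of each list below are to be set against these shares. Where a list or marker count is given with total library size, 6534 of all genes were higher and 2270 lower. On the log2(TPM + 1) scale 7166 of all genes were higher and 1832 lower. The plot of pathway lists shows each gene.

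**Figure D5:**
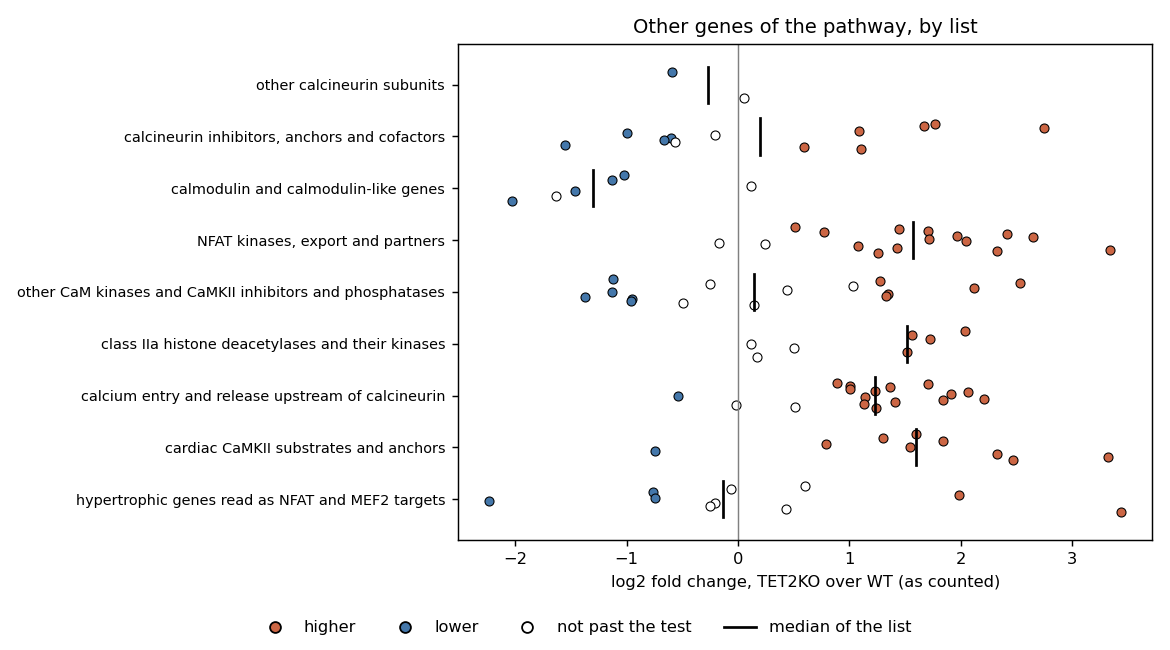
Log2 fold change (TET2KO over WT, as counted) of each tested gene in 9 pathway lists, filled where past the test. Black bars are list medians. The list of NFAT kinases, export factors and partners lies to the right of 0 with 14 of 16 genes higher, and the calmodulin list lies mostly to the left with 4 of 6 lower. Among all genes tested, 33.4% were higher and 29.4% lower.

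The list of NFAT kinases, export factors and partners had 14 of 16 tested genes higher, 0 lower (also 0 at an unadjusted p under 0.05, and by DESeq2 and limma-voom) and a median of 1.57. Taking the trend out left 13 higher and 2 lower, with a median of 0.89, where 21.9% of all genes were higher. Gsk3a, a kinase that phosphorylates NFATc proteins for export from the nucleus, stood at 11.5 ± 0.713 CPM in WT and 37.8 ± 12.8 CPM in TET2KO (log2 fold change 1.72 ± 0.27, adjusted p = 0.0065, trend-removed 0.97 ± 0.16). Prkaca, the catalytic subunit of protein kinase A, went from 76.1 ± 0.681 to 182 ± 42.9 CPM (1.26 ± 0.21, adjusted p = 0.0065, trend-removed 1.05 ± 0.15). Csnk1e, a casein kinase 1 gene, was higher by 1.70 ± 0.28 (trend-removed 0.63 ± 0.14). With merged exon length, Csnk1e was 0.23 and did not pass. Mef2c, a transcription factor that works beside NFAT, went from 15.6 ± 2.79 to 42.0 ± 11.8 CPM (1.42 ± 0.24, adjusted p = 0.0065, trend-removed 1.12 ± 0.18). Homer2 and Homer3, scaffold proteins that compete with calcineurin for NFAT, did not pass at -0.17 ± 0.15 and 0.24 ± 0.19, and were the 2 lower genes after trend removal (-1.30 ± 0.24 and -0.79 ± 0.19). On the log2(TPM + 1) scale both were higher (0.44 and 0.70).

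The calmodulin list ran the other way. Of 6 tested genes, 4 were lower, 0 higher (also 0 at an unadjusted p under 0.05, and by DESeq2 and limma-voom) and 2 not past, with a median of -1.30. Calm2, which encodes the Ca2+ sensor calmodulin that switches on both calcineurin and CaMKII, went from 379 ± 19.8 to 173 ± 55.8 CPM (-1.13 ± 0.25, adjusted p = 0.0078). After trend removal Calm2 stood at -0.010 ± 0.10 and did not pass. Calm3, another calmodulin gene, did not pass (0.12 ± 0.16, trend-removed -0.46 ± 0.13, which passed as lower). With total library size Calm3 was higher (0.55). Calml4 and Pcp4 were lower at about 1 CPM or less in both groups, and each lost its call without some libraries (Calml4 without any one library other than TET2KO replicate 2, Pcp4 without WT replicate 1 or 3). Nrgn, a neuronal calmodulin-binding protein, did not pass (-1.64 ± 0.69), and was lower with DESeq2 or without WT replicate 3. The count of lower genes in this list was 2 without WT replicate 1 and on the log2(TPM + 1) scale.

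Of the calcineurin subunits outside the 10, Ppp3cc was lower (-0.59 ± 0.16, adjusted p = 0.015). It did not pass without TET2KO replicate 3 or WT replicate 3 (adjusted p = 0.052 and 0.070). Nor did it pass with the trend removed (-0.13 ± 0.12, and -0.32 with merged exon length) or with total library size (-0.16). On the log2(TPM + 1) scale its sign was positive (0.042) and it did not pass. Ppp3r1, the regulatory B subunit, stood at 66.3 ± 0.134 and 69.0 ± 2.47 CPM and did not pass (0.058 ± 0.14), with a trend-removed value of 0.79 ± 0.14 that passed. Ppp3r2, its testis form, had too few reads to be tested. Among 12 inhibitors, anchors and cofactors, 6 were higher, 4 lower and 2 not past, with a median of 0.19. Chp1, a calcineurin-homologous protein that inhibits calcineurin, went from 33.7 ± 2.53 to 71.8 ± 10.3 CPM (1.09 ± 0.17, adjusted p = 0.0065, trend-removed 1.30 ± 0.16). Myoz2, which ties calcineurin to the sarcomere's Z disc, went from 5324 ± 607 to 1809 ± 754 CPM (-1.56 ± 0.33, adjusted p = 0.0070, trend-removed -0.55 ± 0.13). Cabin1, an inhibitor, and Akap6, an anchor at the nuclear envelope, were higher by 2.74 ± 0.66 and 1.67 ± 0.41, with trend-removed values of 0.40 and 0.32 that did not pass. Fkbp1a (-0.21 ± 0.16) and Myoz1 (-0.57 ± 0.57) did not pass. Fkbp1a was higher with the trend removed (0.45 ± 0.12) and on the log2(TPM + 1) scale (0.42). With merged exon length it was -0.26 and did not pass. The other lower genes of this list, named after their values were seen like those of the other short counts below, were Fkbp8 (-0.60 ± 0.19), Cib1 (-0.996 ± 0.26) and Lmcd1 (-0.67 ± 0.20). The count of lower genes in this list fell to 2 without WT replicate 1, WT replicate 2, TET2KO replicate 1 or TET2KO replicate 3, to 1 without WT replicate 3, and to 1 with total library size or on the log2(TPM + 1) scale.

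Among 15 tested genes of other CaM kinases and the inhibitors and phosphatases of CaMKII, 5 were higher, 5 lower and 5 not past. After trend removal 4 were higher and 8 lower. Camk2a, the CaMKII gene outside the 10, went from 4.40 ± 0.707 to 25.5 ± 12.7 CPM (2.53 ± 0.40, adjusted p = 0.0065, trend-removed 1.09 ± 0.19). Camk1, a monomeric CaM kinase, went from 158 ± 13.0 to 72.6 ± 22.5 CPM (-1.13 ± 0.24, adjusted p = 0.0070, trend-removed -0.70 ± 0.15). Ppp1ca, a catalytic subunit of protein phosphatase 1, went from 817 ± 105 to 315 ± 118 CPM (-1.37 ± 0.29, adjusted p = 0.0071, trend-removed -0.98 ± 0.19). Ppm1e, a phosphatase of CaM kinases, was higher by 1.35 ± 0.27 (trend-removed 0.55 ± 0.20). Ppp2ca and Ppp2cb, catalytic subunits of protein phosphatase 2A, did not pass at -0.49 ± 0.21 and 0.14 ± 0.14. Ppp2ca was lower with the trend removed (-1.30 ± 0.29), with DESeq2 and without TET2KO replicate 2. Ppp2cb was higher with the trend removed (0.69 ± 0.12), with total library size and on the log2(TPM + 1) scale. In the main test, Camk1d, Camkk1 and Ppm1f were the other higher genes, and Pnck, Ppp1cb and Ppp1cc the other lower ones. Without TET2KO replicate 3 or WT replicate 3, or with total library size or log2(TPM + 1), 3 genes of this list were lower, and both of those scalings gave 8 higher.

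Cardiac substrates and anchors of CaMKII had 8 of 9 tested genes higher and 1 lower, with a median of 1.60, and with the trend removed 5 were higher and 0 lower, with a median of 0.40. Ryr2, the Ca2+ release channel, went from 91.3 ± 9.82 to 459 ± 269 CPM (2.33 ± 0.49, adjusted p = 0.0069, trend-removed 0.40 ± 0.13). Atp2a2, the Ca2+ pump of the sarcoplasmic reticulum, was higher by 1.30 ± 0.27 (trend-removed 0.40 ± 0.12). Mybpc3, a thick-filament protein, was higher by 1.55 ± 0.29, with a trend-removed value of -0.00089 ± 0.11. The lower gene was Pln, the pump's inhibitor (-0.75 ± 0.26, adjusted p = 0.035, trend-removed 0.26 ± 0.10), which is named because it was the only lower one. It was not lower without any one library other than TET2KO replicate 2, nor with total library size or log2(TPM + 1).

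Among 17 tested genes of Ca2+ entry and release upstream of calcineurin, 14 were higher and 1 lower, with a median of 1.23, and with the trend removed 4 were higher and 3 lower. Plcb3 and Plcg1, phospholipases C, were higher by 2.21 ± 0.38 and 1.84 ± 0.33 (trend-removed 0.51 ± 0.15, which passed, and 0.27 ± 0.14, which did not). Gna11, a G protein subunit that couples the Angiotensin II receptor to phospholipase C, was higher by 1.01 ± 0.18, and Trpm4, a Ca2+-activated cation channel, by 1.24 ± 0.22. Their trend-removed values were -0.26 ± 0.13 and -0.48 ± 0.26 and did not pass. The lower gene was Orai3, a Ca2+ entry channel (-0.53 ± 0.19, adjusted p = 0.042). It lost its call without any one library other than TET2KO replicate 2 and under total library size or log2(TPM + 1). The cation channel gene Trpc1 did not pass (-0.020 ± 0.20). Without WT replicate 3 the higher count of this list was 8, and without WT replicate 1 or WT replicate 2 it was 9.

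Class IIa histone deacetylases and their kinases had 4 of 7 genes higher and 0 lower (also 0 at an unadjusted p under 0.05, and by DESeq2 and limma-voom). Hdac5, which CaM kinases and protein kinase D drive out of the nucleus, went from 19.9 ± 1.48 to 58.8 ± 20.5 CPM (1.56 ± 0.27, adjusted p = 0.0065). Hdac4, the CaMKII-docking member, Hdac7 and the kinase gene Prkd2 were higher by 2.04 ± 0.49, 1.73 ± 0.48 and 1.51 ± 0.36. Hdac7 did not pass without WT replicate 3 (adjusted p = 0.067) or with limma-voom (0.053). Hdac9 (0.12 ± 0.20) and Prkd3 (0.17 ± 0.17) did not pass. With the trend removed 0 were higher and 2 were lower, the lower ones being Hdac9 (-0.83 ± 0.27) and Prkd3 (-0.40 ± 0.14). Hdac5 did not pass there (-0.40 ± 0.16). With total library size 6 were higher, where 6534 of all genes were. On the log2(TPM + 1) scale all 7 were, where 7166 of all genes were higher.

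Of 10 hypertrophic genes read as targets of NFAT and MEF2, Rcan1 included, 2 were higher, 3 lower and 5 not past, with a median of -0.14. Xirp1, an intercalated disc protein, was higher by 3.44 ± 0.64 (adjusted p = 0.0065, trend-removed 1.22 ± 0.32), and Myh7, the slow myosin heavy chain, by 1.99 ± 0.43 (trend-removed -0.12 ± 0.12). Nppb, which encodes brain natriuretic peptide, went from 5782 ± 894 to 1231 ± 552 CPM (-2.23 ± 0.39, adjusted p = 0.0065, trend-removed -1.01 ± 0.22). Mhrt, a cardiac long noncoding RNA, was lower (-0.77 ± 0.15, trend-removed 0.36 ± 0.15). It did not pass with total library size or on the log2(TPM + 1) scale, and its reads may not be separable from Myh7 on the other strand. Acta1, skeletal actin, did not pass (0.60 ± 0.27) but was higher with the trend removed (1.01 ± 0.24) and without TET2KO replicate 2 (0.73). Ankrd1, a cardiac ankyrin-repeat protein, did not pass (-0.066 ± 0.23). The other lower gene was Nppa, for atrial natriuretic peptide (-0.74 ± 0.25). Total library size and log2(TPM + 1) each gave 4 higher genes and 1 lower in this list, and 4 were higher without TET2KO replicate 2.

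Markers of the cell types in ventricle were counted the same way, where 33.4% of all genes were higher and 29.4% lower. Their part in the results above was not tested. Of 11 cardiomyocyte markers, 5 were higher and 5 lower, and their summed level ran from 84530 to 104377 CPM in WT and from 56785 to 62101 CPM in TET2KO. Of 11 endothelial markers, 8 were higher and 3 lower, with sums of 566 to 617 and 631 to 1121 CPM. Of 9 fibroblast markers, 5 were higher and 4 lower (1773 to 1834 and 1700 to 1894 CPM). Of 8 smooth muscle and pericyte markers, 3 were higher and 3 lower (2229 to 2376 and 1375 to 1992 CPM), and of 8 tested leukocyte markers, 2 were higher and 2 lower (82.9 to 90.5 and 79.7 to 93.7 CPM). All 5 red blood cell markers were lower, with sums of 1554 to 7037 CPM in WT and 165 to 741 CPM in TET2KO. Among neuronal and Schwann cell markers 3 of 5 tested were lower (34.1 to 37.3 and 21.5 to 25.5 CPM), and among atrial markers 3 of 3 were lower (1024 to 1549 and 614 to 894 CPM). No marker was at 0 reads in all libraries. Under the trend-removed fit, 21.9% of all genes were higher and 24.3% lower. There, cardiomyocyte markers had 5 higher and 2 lower, endothelial markers 6 and 1, and fibroblast markers 2 and 0. Smooth muscle and pericyte markers had 3 and 3, and leukocyte markers 1 and 1. All 5 red blood cell markers stayed lower, as did 1 neuronal or Schwann and 1 atrial marker, with 0 higher in each of these lists. The lower endothelial count was 1 without TET2KO replicate 1 or 3 or WT replicate 1 or 2, and the higher fibroblast count was 2 without WT replicate 2 or 3 and 3 without TET2KO replicate 3 or WT replicate 1. With total library size, 8 endothelial markers were higher and 1 lower, and 5 fibroblast markers were higher and 0 lower. The lower neuronal and Schwann count was 1 without TET2KO replicate 1 or 3 or WT replicate 1 or 3, and 2 were higher without TET2KO replicate 2. With total library size or log2(TPM + 1) that list had 2 higher and 0 lower. The lower cardiomyocyte count was 3 without TET2KO replicate 3 or WT replicate 3 and with either of those scalings, and the higher leukocyte count was 1 without WT replicate 3. On log2(TPM + 1) 1 smooth muscle and 1 atrial marker were lower.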

How the data were processed

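Per the labels' protocols, poly(A) RNA of 6 libraries was sequenced as read pairs of 150 nt. GRCm38, DESeq2, Subread 1.5.2 (with featureCounts), STAR 2.5.2b and Trimmomatic 0.36 appear in the submitters' processing notes. The authors deposited raw read counts per gene, TPM values, and a table whose library columns are a normalised signal, with log2 fold changes and p-values, per the file headers. The sources used here do not give the annotation release or the strand setting. Columns were matched through the library name in each sample's description, leaving 0 columns of per-sample values unmatched.

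The main test was edgeR 4.0.16 (R 4.3.3; quasi-likelihood, robust, TMM, filterByExpr, group only) on the deposited counts. SEs were worked back from F. Trend removal used a smooth surface of log2 length and GC per library (mgcv 1.9.3, basis size 6 per axis) as offsets, for 14341 genes with GENCODE M21 lengths. A real difference that tracks length or GC is taken out too. Alternatives were DESeq2 1.42.0, limma-voom and limma 3.58.1 on log2(TPM + 1) and log2(TPM + 0.1), total library size, no filter on low counts, each library left out, and replicate number as a block. The 10 genes, the lists and the tests were chosen with earlier results of these data known. From each list up to 4 genes with the smallest p past the test and up to 2 not past it with the highest mean CPM are named. Some genes that this rule takes are not reported here. Genes of like pattern were taken among named genes whose mean log2 CPM (prior count 2) was 1 or more.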

Additional observations from a re-analysis of the deposited data

How the results depend on the processing

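Over 18 alternatives per gene, Nfatc3 passed in 18, Nfatc1 in 16, Nfatc2 in 15, Ppp3ca in 13, Camk2d in 11, Nfatc4 in 10, Camk2b in 10 (8 higher, 2 lower), Camk2g in 5 (3 higher, 2 lower), Ppp3cb in 4 (3 higher, 1 lower) and Rcan1 in 0. With one library left out, the 10 genes had 4 to 7 higher, 0 to 1 lower and 4 to 8 called. All genes then had 3370 to 5928 higher, 2479 to 5250 lower and 6133 to 11178 called. With the length and GC trend removed, 1 of the 10 was called, as higher, and 3137 of all genes were higher; Camk2b was -0.56 and Nfatc4 -0.25. With merged exon lengths 4 were called, 2 higher and 2 lower, and Camk2b was -0.81, Camk2d -0.31, Camk2g -0.61, Ppp3ca -0.027 and Nfatc4 -0.14. With the trend removed and TET2KO replicate 2 left out, a choice made after seeing the data, 2 were lower, and Camk2b was -0.63, Camk2g -0.57, Ppp3cb 0.27 and Nfatc4 -0.24. On log2(TPM + 0.1) 7270 of all genes were higher and 1882 lower, with Ppp3cb at 0.39. On log2(TPM + 1) 1832 were lower, with Ppp3cb at 0.38, and with total library size 2270 were lower. The cause of these changes was not tested. Replicate numbers did not pair the libraries: deviations of same-numbered libraries correlated at 0.039, -0.23 and -0.013, and not every library correlated best with its own number. With the replicate block, 5 of the 10 were higher, where 4070 of all genes were higher and 7618 were called. Camk2b (0.88, adjusted p = 0.092) and Camk2d (0.70, adjusted p = 0.053) did not pass there. The replicate block with the trend removed called 5722 of all genes, 2734 higher, and 1 of the 10, as higher, with Camk2b at -0.52 and Nfatc4 at -0.19. Of 88 family shares recomputed for 11 results, 86 kept their sign, and 2 did not. The NFATc genes had 13 to 66 reads per WT library, which limits their precision.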
